A study of Mus musculus with 9 samples.

Results

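The replication-dependent histone genes are the protein-coding genes of the mouse whose names in the deposited table begin with Hist1h, Hist2h, Hist3h or Hist4h. There were 68 of them among 43629 genes: 6 of class H1, 19 of H2a, 18 of H2b, 12 of H3 and 13 of H4. The rule uses name and gene type and no measured value, but it was set with earlier results of these data known. In mm10, 55 lie in the Hist1 cluster on chromosome 13, 10 in Hist2 on chromosome 3, 2 in Hist3 on chromosome 11 and 1, Hist4h4, on chromosome 6.

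RNA was counted per gene in 9 libraries of small intestine epithelial cells, 3 from mice labelled HIF1α∆IEC, 3 from mice labelled HIF2α∆IEC and 3 from littermates labelled HIFαF/F, which served as controls. HIF1α and HIF2α are subunits of transcription factors that act when oxygen is low, ∆IEC marks a loss in the intestinal epithelium and F/F marks floxed alleles. The labels call all mice naïve, but their extraction text also names a collagen-induced arthritis model; they do not name the Cre driver, the age of the mice or which of the HIFα genes is floxed in the controls. Nor do they state whether the libraries of a group are from different animals, so p-values measure only the spread between these libraries, which may be in part technical.

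Replication-dependent histone mRNAs are made in bulk during S phase, when new chromatin has to be packed. Histones H2A, H2B, H3 and H4 form the nucleosome core around which DNA is wound, and H1 is the linker histone that closes the nucleosome. The mRNAs typically have no introns and end in a conserved hairpin, bound by the stem-loop binding protein SLBP, in place of a poly(A) tail. In the intestine, cells in S phase are those of the crypts. A minority of these genes can also give poly(A)-tailed mRNAs, which is how histone mRNAs are seen in cells that have stopped dividing.

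The hairpin was searched in the GENCODE M21 transcripts (GRCm38) as a stem of 6 base pairs around a loop of 4 bases, in the forms found at the ends of these genes. It was found in 42 of the 68 members, against 0.594% of 21901 protein-coding genes. Whole transcripts were searched, and a transcript can run on past the hairpin. It did so by 840 bases in Hist1h1c, 31 in Hist1h2ao, 74 in Hist1h3c, 770 in Hist1h4d, 330 in Hist1h4i and 4884 in Hist1h1d. The sequences below are shown because the hairpin is shared across the family and its form separates the H4 genes from the others. Capitals mark the stem.
Hist1h1c: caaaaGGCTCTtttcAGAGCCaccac
Hist1h2ao: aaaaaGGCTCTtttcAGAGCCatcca
Hist1h3c: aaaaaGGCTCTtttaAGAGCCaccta
Hist1h4d: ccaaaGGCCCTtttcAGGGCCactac
Hist1h4i: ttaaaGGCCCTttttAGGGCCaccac
The 16 bases of stem and loop lie at chr13:23739512-23739527 (plus strand) in Hist1h1c, chr13:21810898-21810913 (plus) in Hist1h2ao, chr13:23745047-23745062 (minus) in Hist1h3c, chr13:23581950-23581965 (plus) in Hist1h4d and chr13:22040966-22040981 (minus) in Hist1h4i. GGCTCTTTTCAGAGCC was the commonest form, in 24 members of classes H1, H2a, H2b and H3. The forms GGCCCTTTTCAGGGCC and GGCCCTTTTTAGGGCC were found in 7 and 2 members, all of class H4. A poly(A) signal, AATAAA or ATTAAA in the last 40 bases of a transcript, was found by sequence in 17 of 68 members, against 76.0% of all protein-coding genes. Of the members, 29 had the hairpin without such a signal, 13 had both, 4 had the signal alone, 20 had neither within their gene models, which often stop at the coding end, and 2 had no transcript in that release. The deposited coordinates equalled those of GENCODE M21 in 44 of 68 members, and 2 members had another gene type there. The transcripts searched are therefore not always those that were counted.

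A RefSeq promoter (GRCm38.p6), 300 bases from 250 before to 50 after the start, was matched to 60 of the 68 members. Promoters were searched on both strands for TATAAA (the TATA box), CCAAT (the box bound by NF-Y), ATTTGCAT (the octamer bound by OCT1) and ACGTG or GCGTG (the core letters of a hypoxia response element). TATAAA was in 34 of 60, against 13.6% of all promoters, and CCAAT in 51 of 60, against 37.4%. CCAAT was in every matched promoter of H1, H2a, H2b and H3, and in 3 of 12 of H4. ATTTGCAT was in 7 of 16 H2a and 6 of 16 H2b promoters and in none of the matched promoters of the other classes, against 1.75% of all promoters. The HIF core letters were in 25 of 60, or 41.7%, against 44.0% of all promoters. Letters in a window are a description and show no binding. The H2a and H2b genes include 12 pairs that start within 500 bases of each other on opposite strands. Their windows overlap, so 1 site can count for both genes of a pair. The stretch before the start is printed for Hist1h4d, 1 of the 3 H4 genes with CCAAT, and for Hist1h2ae, because both hold TATAAA and CCAAT and Hist1h2ae alone holds ATTTGCAT; capitals mark TATAAA or CCAAT or ATTTGCAT on either strand.
Hist1h4d: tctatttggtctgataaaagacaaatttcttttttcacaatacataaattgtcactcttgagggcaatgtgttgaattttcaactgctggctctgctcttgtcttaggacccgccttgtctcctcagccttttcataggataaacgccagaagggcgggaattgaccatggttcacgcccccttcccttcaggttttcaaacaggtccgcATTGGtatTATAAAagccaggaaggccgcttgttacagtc
Hist1h2ae: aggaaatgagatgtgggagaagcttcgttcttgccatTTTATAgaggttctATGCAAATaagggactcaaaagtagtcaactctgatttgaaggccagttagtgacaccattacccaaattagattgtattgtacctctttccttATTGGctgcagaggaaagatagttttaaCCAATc
These lie at chr13:23581318-23581567 (plus strand) and chr13:23571221-23571399 (minus strand). The Hist1h2ae stretch is the 179 bases up to the RefSeq start of Hist1h2bg, which is transcribed the other way from the same gap. In this stretch TATAAA and ATTTGCAT read on the strand of Hist1h2bg, at the end next to its start. They need not belong to Hist1h2ae.

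Total counts ran from 20959964 to 40391453 per library, and the members took 148 to 248 CPM, that is, counts scaled to a common library size. A pair of libraries stood apart: mitochondrially encoded genes took 12.2% of the counts in HIF1α∆IEC replicate 2 and 10.8% in HIF2α∆IEC replicate 1, but 5.04% to 6.74% in the remaining 7. Xist and Y-linked genes read 0 of 3 controls, 2 of 3 HIF1α∆IEC and 2 of 3 HIF2α∆IEC libraries as female. Sex and group are thus partly confounded, and a term for sex is estimated within the ∆IEC groups only. The targeted genes did not check the labels: Hif1a had 15.97, 19.9 and 21.1 CPM in the controls, 22.6, 64.2 and 18.0 in HIF1α∆IEC and 34.9, 15.1 and 22.5 in HIF2α∆IEC, and Epas1, which encodes HIF2α, 32.7, 14.5 and 21.1, then 29.8, 18.5 and 22.3, then 36.1, 11.2 and 11.6. Neither was lower in every library labelled for its loss than in every control, and a count over the whole gene need not show the loss of a floxed exon. Directions below are therefore those of the libraries labelled HIF1α∆IEC and HIF2α∆IEC. Without HIF1α∆IEC replicate 2, the log2 fold changes of 10 of the 19 named members moved by over 1.5 times or turned in HIF1α∆IEC against control, as did 11 of 19 in HIF2α∆IEC against HIF1α∆IEC. Without HIF2α∆IEC replicate 1, 12 of 19 did so in HIF2α∆IEC against control and 5 of 19 in HIF2α∆IEC against HIF1α∆IEC.

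A count was present in every library for 50 members and in none for 7 (Hist1h2aa, Hist1h2ba, Hist2h2aa1, Hist2h2aa2, Hist2h2bb, Hist2h3b and Hist2h3c1). Of the 7, 4 had no window of 50 bases that is theirs alone among the GENCODE M21 transcripts, and 5 overlap another gene of the table, so a count of 0 does not show that they were silent. Hist1h2aa and Hist1h2ba, which encode testis histones, have windows of their own. Over the 66 members with a transcript in that release, a median of 45.5% of windows were unique, and 14 of 59 members with a count had under 20% unique windows. How the authors treated reads that match several copies is not given in the sources used here. The split of counts between near-identical members is uncertain.

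**Figure D1:**
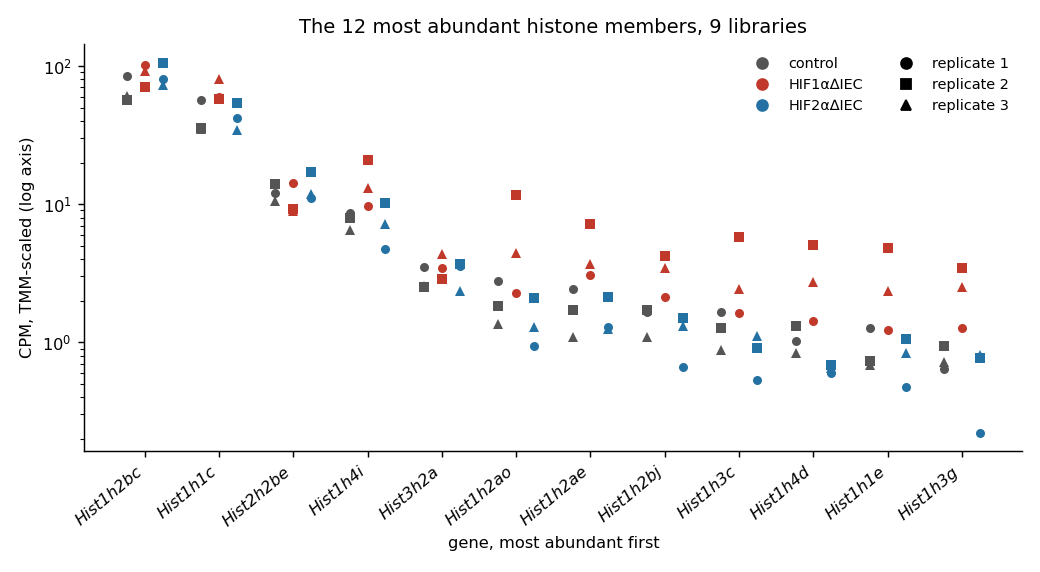
Level of the 12 most abundant members (horizontal axis, most abundant first) in each of the 9 libraries, as TMM-scaled CPM on a log axis; colours are groups and symbols replicates. From Hist1h2ao on, HIF1α∆IEC replicate 2 is the highest library for each gene plotted, whereas Hist1h2bc reads 56.8 to 106 CPM with the groups mixed.

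The members were unequal in level, as the plot of the most abundant genes shows. Hist1h2bc (chr13:23684199-23692488, plus strand), an H2B gene, made the largest number of counts and had 84.4, 56.8 and 60.6 CPM in the controls, 101, 70.2 and 92.7 in HIF1α∆IEC and 80.8, 106 and 73.0 in HIF2α∆IEC. Here CPM are also TMM-scaled, a factor that corrects for differences in library makeup. All 3 groups of Hist1h2bc overlapped. Its deposited length is 736 bases, far less than its span, as in a gene model with introns. Per kilobase of the deposited gene length, Hist1h2bc was also highest, at 109.6 CPM per kb, followed by Hist1h1c at 32.5, Hist1h4i at 13.6, Hist1h2ao at 6.64 and Hist1h2ae at 5.77. The 5 members with the most counts, Hist1h2bc, Hist1h1c, Hist2h2be, Hist1h4i and Hist3h2a, took 79.1% of all member CPM. That share was 81.8% in the controls, 72.2% in HIF1α∆IEC and 86.5% in HIF2α∆IEC, on group means. Of these 5, Hist1h1c, Hist1h4i and Hist3h2a have a hairpin and a poly(A) signal, Hist2h2be has the signal without a hairpin, and Hist1h2bc has neither in its gene model.

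Most histone members had a higher mean level in HIF1α∆IEC than in the controls, but none passed the test after adjustment, and the libraries of the H2B class overlapped between the groups. Summed over all 68 members, the level was 201, 146 and 138 CPM in the controls, against 227, 275 and 259.7 in HIF1α∆IEC, a mean of 162 ± 34.2 (SD, n = 3) against 254 ± 24.4. The lowest HIF1α∆IEC library lay above the highest control, and the ratio of the means was 1.57. Of the 48 members with enough counts to test, 47 had a positive log2 fold change, against 52.7% of the 15486 genes tested, and the median was 1.04, against 0.02 over all genes. With edgeR's quasi-likelihood test and Benjamini-Hochberg adjustment, 0 of 48 members were called under 0.05, against 0.00% of all genes, and the smallest adjusted p of a member was 0.999. At an unadjusted p under 0.05, 21 members were higher and none lower, against 2.91% of all genes higher; DESeq2 gave 21 members and limma-voom 18, with 0 called by either. In 19 of the 48, every HIF1α∆IEC library lay above every control, against 4.60% of all genes, and in 0 of 48 below, against 3.72%.

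These counts leaned on single libraries. HIF1α∆IEC replicate 2 was the highest of the 9 libraries for 40 of 48 members. Without it the median was 0.68, 43 members were positive, and 2 had an unadjusted p under 0.05, against 436 of 15486 genes. The latter number was 6 without control replicate 3, against 204 genes, and 10 without control replicate 2, against 225 genes. With both libraries that stood apart left out, the median was 0.69 and 12 members had an unadjusted p under 0.05, against 1116 genes. With a term for sex, estimated within the ∆IEC groups only, the median was 0.48, with 44 members positive. Then 0 members had an unadjusted p under 0.05, against 438 genes. By library, 24, 44 and 35 of 48 members lay above the highest control in HIF1α∆IEC replicates 1, 2 and 3, against 22.1%, 35.1% and 31.5% of all genes. Scaling by RLE or upper quartile left 47 positive and by total count 46, where the median of all genes was -0.13 and that of the members lay 1.02 above it, as it did with TMM.

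**Figure D2:**
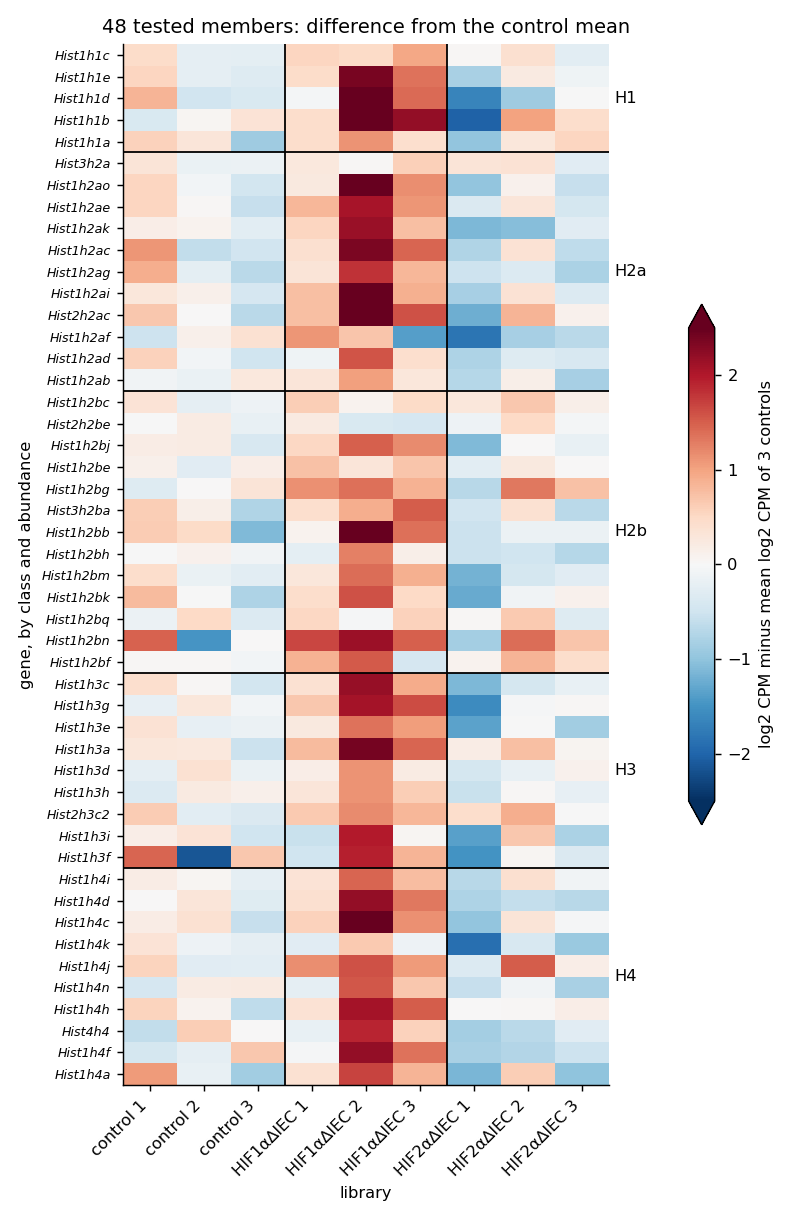
Each of the 48 tested members (rows, by class and abundance) in each of the 9 libraries (columns), coloured by log2 CPM minus the mean log2 CPM of the 3 controls. The column of HIF1α∆IEC replicate 2 is red in 46 of 48 rows and that of HIF2α∆IEC replicate 1 blue in 40 of 48.

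The linker histone genes, class H1, summed to 60.2, 37.7 and 37.0 CPM in the controls, 62.7, 71.5 and 88.4 in HIF1α∆IEC and 43.3, 57.4 and 37.3 in HIF2α∆IEC. HIF1α∆IEC lay above both other groups in every library, by a narrow margin over control replicate 1. Most of the sum was Hist1h1c, with 56.5, 35.4 and 34.9 CPM in the controls, 59.4, 57.7 and 80.9 in HIF1α∆IEC and 42.3, 54.3 and 34.3 in HIF2α∆IEC. Between HIF1α∆IEC and control its log2 fold change came to 0.64 ± 0.27 (SE; edgeR adjusted p = 0.999). Hist1h1e, another somatic linker histone, was at a lower level, with 1.27, 0.732 and 0.683 CPM in the controls, 1.23, 4.80 and 2.35 in HIF1α∆IEC and 0.472, 1.05 and 0.832 in HIF2α∆IEC. Replicate 1 of HIF1α∆IEC was within the controls here, and the log2 fold change was 1.64 ± 0.56 (SE; edgeR adjusted p = 0.999), or 0.97 without HIF1α∆IEC replicate 2. Hist1h1t, the testis linker histone, named here after its values were seen, had 0.142 CPM or less in every library and was not tested.

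The H2A genes summed to 14.99, 10.6 and 8.57 CPM in the controls, 15.4, 42.2 and 20.8 in HIF1α∆IEC and 7.87, 12.3 and 8.25 in HIF2α∆IEC. The gap between HIF1α∆IEC replicate 1 and the highest control was small, and replicate 2 was far above the rest. The log2 ratio of group means was 1.20 and, without HIF1α∆IEC replicate 2, 0.63. Hist3h2a had 3.52, 2.52 and 2.54 CPM in the controls, 3.44, 2.85 and 4.35 in HIF1α∆IEC and 3.59, 3.70 and 2.33 in HIF2α∆IEC. Its groups overlapped, and its gene span overlaps that of Trim17. Hist1h2ao had 2.78, 1.83 and 1.37 CPM in the controls, 2.28, 11.7 and 4.42 in HIF1α∆IEC and 0.945, 2.08 and 1.29 in HIF2α∆IEC, with 6.5% of its windows unique. Hist1h2ae had 2.44, 1.71 and 1.1001 CPM in the controls, 3.04, 7.23 and 3.71 in HIF1α∆IEC and 1.29, 2.11 and 1.25 in HIF2α∆IEC. Every HIF1α∆IEC library of Hist1h2ae lay above the other groups, and its log2 fold change against control was 1.41 ± 0.46 (SE; edgeR adjusted p = 0.999), or 0.92 without HIF1α∆IEC replicate 2. All 11 tested H2A genes had a positive fold change, with a median of 1.40.

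The H2B genes, which held 51.2% of all member CPM, differed less: they summed to 104, 77.2 and 76.7 CPM in the controls, 125, 96.4 and 114.5 in HIF1α∆IEC and 95.9, 131 and 91.2 in HIF2α∆IEC. The groups overlapped, and the log2 ratio of HIF1α∆IEC to control was 0.38. Of 13 tested genes 12 were positive, with a median of 1.01. The exception among all 48 members was Hist2h2be, with 12.01, 13.9 and 10.6 CPM in the controls, 14.2, 9.29 and 8.99 in HIF1α∆IEC and 11.1, 17.1 and 11.8 in HIF2α∆IEC. Between HIF1α∆IEC and control its log2 fold change came to -0.17 ± 0.30 (SE; edgeR adjusted p = 0.999), within the spread between libraries. Hist1h2bj had 1.66, 1.71 and 1.1001 CPM in the controls, 2.14, 4.22 and 3.46 in HIF1α∆IEC and 0.661, 1.51 and 1.32 in HIF2α∆IEC, so HIF1α∆IEC lay above both other groups.

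The H3 genes summed to 6.45, 5.57 and 4.78 CPM in the controls, 6.89, 20.4 and 11.1 in HIF1α∆IEC and 2.93, 6.01 and 4.74 in HIF2α∆IEC. Again all HIF1α∆IEC libraries were above the others, replicate 1 narrowly. Hist1h3a had the smallest unadjusted p of the members in HIF1α∆IEC against control, with 0.439, 0.447 and 0.228 CPM in the controls, against 0.689, 2.22 and 1.14 in HIF1α∆IEC. Its log2 fold change was 1.84 ± 0.56 (SE; edgeR adjusted p = 0.999), or 1.26 without HIF1α∆IEC replicate 2. Hist1h3c had 1.66, 1.26 and 0.872 CPM in the controls, 1.63, 5.81 and 2.42 in HIF1α∆IEC and 0.535, 0.912 and 1.11 in HIF2α∆IEC. Its HIF1α∆IEC replicate 1 fell within the controls, and every HIF2α∆IEC library lay below every HIF1α∆IEC library. Hist1h3g had 0.635, 0.935 and 0.721 CPM in the controls, 1.27, 3.43 and 2.53 in HIF1α∆IEC and 0.220, 0.769 and 0.809 in HIF2α∆IEC.

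The H4 genes summed to 15.2, 14.8 and 11.4 CPM in the controls, 16.7, 44.0 and 24.997 in HIF1α∆IEC and 7.97, 16.5 and 11.6 in HIF2α∆IEC. All 10 tested H4 genes were positive in HIF1α∆IEC against control, with a median of 1.21. The most abundant, Hist1h4i, had 8.64, 7.88 and 6.49 CPM in the controls, 9.75, 20.96 and 13.2 in HIF1α∆IEC and 4.72, 10.1 and 7.21 in HIF2α∆IEC. Hist1h4d (chr13:23581598-23581990, plus strand), whose hairpin and promoter are printed above, had 1.03, 1.30 and 0.835 CPM in the controls, 1.41, 5.07 and 2.71 in HIF1α∆IEC and 0.598, 0.684 and 0.647 in HIF2α∆IEC. Its 3 groups did not overlap: HIF1α∆IEC was highest and HIF2α∆IEC lowest. Between HIF1α∆IEC and control the log2 fold change came to 1.53 ± 0.49 (SE; edgeR adjusted p = 0.999), or 0.93 without HIF1α∆IEC replicate 2. Unlike most members, Hist1h4k, with 28.5% of its windows unique, had 1.51, 1.097 and 1.02 CPM in the controls, against 0.978, 1.90 and 1.11 in HIF1α∆IEC, and the direction of its small difference (0.13 ± 0.50, SE) turned without HIF1α∆IEC replicate 2 (-0.25).

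**Figure D3:**
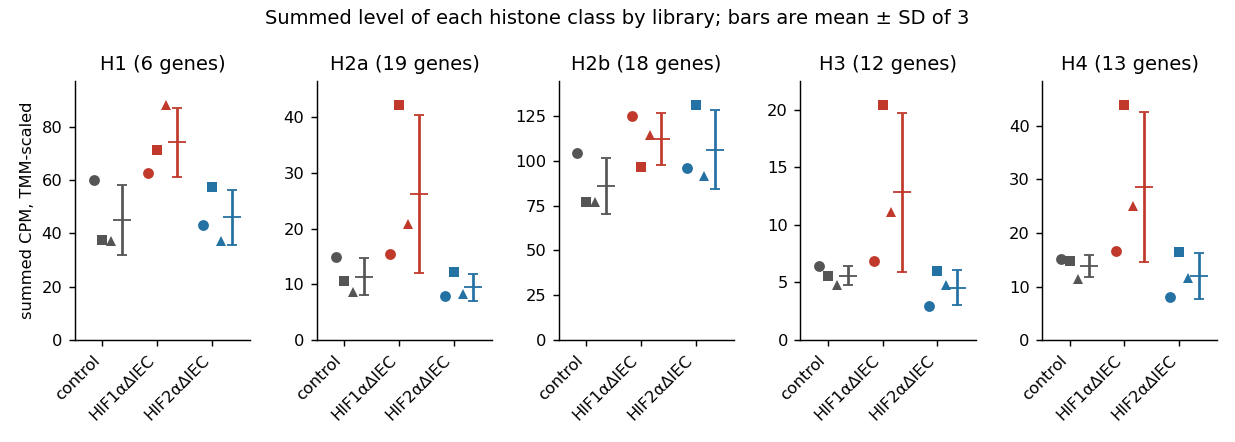
Summed TMM-scaled CPM of each histone class (panels) in each library, by group; symbols are replicates 1 (circle), 2 (square) and 3 (triangle), and the bar is the mean ± SD of 3. HIF1α∆IEC lies above the controls in every library for H1, H2a, H3 and H4, and overlaps them for H2b (96.4 against 104 CPM).

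The makeup of histone mRNA by class also differed most in HIF1α∆IEC replicate 2. H2B genes made 35.1% of member counts there, against 44.1% to 60.7% in the other 8 libraries. H2A genes made 15.4%, against 4.98% to 7.99%, H4 genes 16.02%, against 5.04% to 10.1%, and H3 genes 7.44%, against 1.85% to 4.28%. H1 was within the range of the others, at 26.0%. These shares need no scaling between libraries, since each is taken within a library.

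Between HIF2α∆IEC and the controls no difference in histone mRNA larger than the spread between libraries was found. The summed level was 158, 223 and 153 CPM, a mean of 178 ± 39.3 (SD, n = 3), which overlapped the controls. The log2 ratio of the means was 0.14 and turned to -0.06 without HIF2α∆IEC replicate 2. Of 48 members, 16 had a positive and 32 a negative log2 fold change, against 52.9% positive and 47.1% negative among all genes, and the median was -0.22. edgeR called 0 members, against 0.00% of all genes (smallest adjusted p of a member 1.00 after Benjamini-Hochberg adjustment), and 0 had an unadjusted p under 0.05, as with DESeq2 and limma-voom, against 1.11% of all genes higher and 0.743% lower. In 1 member every HIF2α∆IEC library lay above every control, against 3.03% of all genes, and in 3 below, against 2.51%. The negative median leaned on single libraries. HIF2α∆IEC replicate 1 was the lowest of the 9 libraries for 28 of 48 members. It lay below the lowest control for 31, against 33.5% of all genes. Without that library the median was 0.01, with 24 members positive and 24 negative. Without control replicate 1 it was -0.02, also with 24 positive and 24 negative. Without HIF2α∆IEC replicate 2 it was -0.51, with 7 positive and 41 negative. An unadjusted p under 0.05 was reached by 1 member without HIF2α∆IEC replicate 1, against 463 of 15486 genes. It was reached by 1 member without HIF2α∆IEC replicate 2, against 542 genes, and by 0 without control replicate 1, against 175 genes. With a term for sex, estimated within the ∆IEC groups only, the median was -1.05. Then 9 of 48 members had an unadjusted p under 0.05, against 826 of 15486 genes (683 higher, 143 lower).

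The members of smallest unadjusted p among those higher in HIF2α∆IEC than in the controls were Hist1h2bc, at 0.36 ± 0.24 (SE), Hist1h2bg, Hist1h4j and Hist1h2bf, none of which passed the test. Hist1h2bg had 0.391, 0.528 and 0.683 CPM in the controls, against 0.315, 1.45 and 0.971 in HIF2α∆IEC, so the groups overlapped. Hist1h4j had 0.781, 0.406 and 0.417 CPM in the controls, against 0.409, 1.65 and 0.624 in HIF2α∆IEC, with a single high library. Hist1h2bf was above every control in every HIF2α∆IEC library, but at a low level, 0.189 to 0.370 against 0.146 to 0.163 CPM. Among those lower than the controls, Hist1h4k had 0.283, 0.912 and 0.624 CPM in HIF2α∆IEC, all below the 1.02 to 1.51 of the controls (-0.99 ± 0.50, SE; edgeR adjusted p = 1.00). Hist1h4d was also below every control, at -0.71 ± 0.49 (SE; edgeR adjusted p = 1.00). Hist1h2af, at -1.15 ± 0.72, and Hist1h2ak, at -0.78 ± 0.54, overlapped the controls.

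Between the 2 ∆IEC groups the median fold change of the members was further from 0 than in either comparison with the controls, and again no member passed edgeR's test. The summed level did not follow: its log2 ratio was -0.51 for HIF2α∆IEC against HIF1α∆IEC and 0.65 for HIF1α∆IEC against control. The comparison shares its libraries with the 2 above, so it is not independent of them. Of 48 members, 47 had a negative log2 fold change in HIF2α∆IEC against HIF1α∆IEC, against 48.4% of all genes with a negative and 51.6% with a positive value, and the median was -1.42, against 0.01. edgeR's quasi-likelihood test with Benjamini-Hochberg adjustment called 0 members, against 0.00% of all genes, with a smallest adjusted p of 0.649; limma-voom also called 0. At an unadjusted p under 0.05, 30 members were lower and 0 higher, against 4.29% and 2.31% of all genes, with 28 by DESeq2 and 27 by limma-voom. In 29 of 48 every HIF2α∆IEC library lay below every HIF1α∆IEC library, against 6.08% of all genes, and in 0 above, against 4.37%. DESeq2 called 1 member of 15 genes, Hist1h4d, with a log2 fold change of -2.24 (DESeq2 adjusted p = 0.0207); edgeR gave -2.24 ± 0.49 (SE; adjusted p = 0.649), and over the alternatives the adjusted p of this gene ran from 0.0207 to 1.00.

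Here too 2 libraries carried much of the size. Without HIF1α∆IEC replicate 2 the median was -0.89 and 14 members had an unadjusted p under 0.05, against 1186 of 15486 genes. Without HIF2α∆IEC replicate 1 they were -1.19 and 18, against 1335 genes. Without both they were -0.68 and 5, against 1512 genes, so the members' share was then close to that of all genes. Hist1h2ak, at -2.18 ± 0.54 (SE), Hist1h3g, at -1.98 ± 0.55, and Hist1h3c, at -1.93 ± 0.54, followed Hist1h4d by size of unadjusted p, each with an edgeR adjusted p of 0.649. Without HIF1α∆IEC replicate 2 these values were -1.42, -1.60 and -1.19, and that of Hist1h4d -1.63. Hist1h2ak had 1.30, 4.17 and 1.53 CPM in HIF1α∆IEC and 0.378, 0.399 and 0.740 in HIF2α∆IEC. Hist2h2be was the member with a positive value, 0.30 ± 0.30 (SE; edgeR adjusted p = 0.923), and Hist1h2bc was at -0.02 ± 0.24, a direction that turned under total-count scaling (0.11). For H2B as a class the log2 ratio of sums was -0.08, and 0.06 under total-count scaling, against -0.69 for H1, -1.47 for H2A, -1.49 for H3 and -1.25 for H4. Without both libraries that stood apart these ratios were -0.07 for H2B, -0.63 for H1, -0.78 for H2A, -0.69 for H3 and -0.52 for H4.

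**Figure D4:**
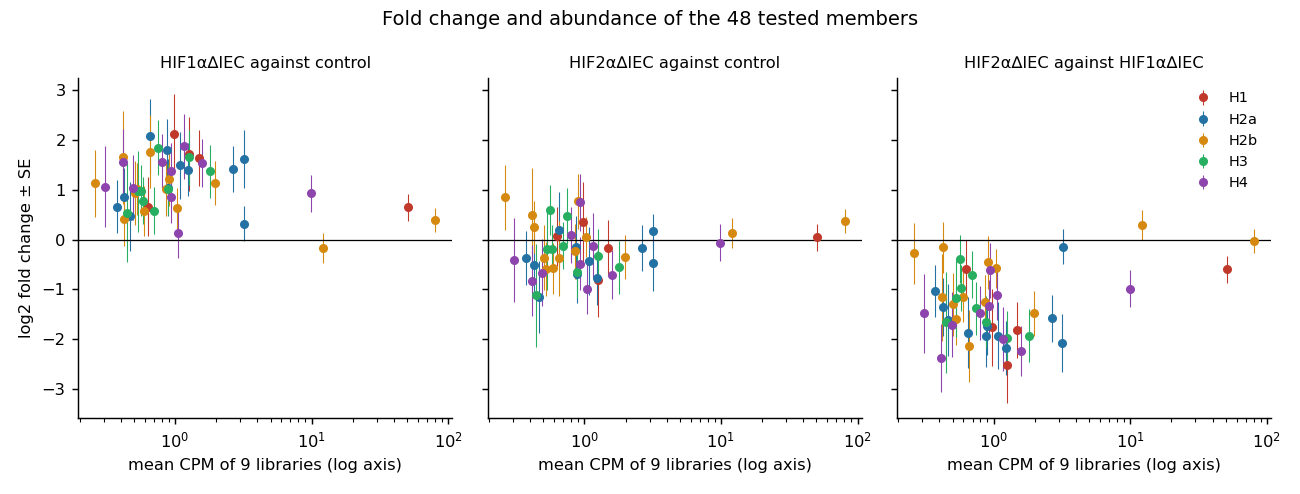
log2 fold change ± SE of the 48 tested members (vertical axis) by mean CPM over the 9 libraries (log axis), coloured by class, for the 3 comparisons. At the right, Hist1h2bc and Hist2h2be lie between -0.17 and 0.39 in all panels. Hist1h1c and Hist1h4i, also abundant, are at 0.64 and 0.93 in HIF1α∆IEC against control. In HIF2α∆IEC against HIF1α∆IEC they are at -0.60 and -0.99. Members near 1 CPM spread up to 2.12 in HIF1α∆IEC against control and down to -2.52 in HIF2α∆IEC against HIF1α∆IEC.

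The abundant members were then set beside the scarce ones. The 5 most abundant summed to 165, 117 and 115 CPM in the controls, 188, 161 and 200.2 in HIF1α∆IEC and 142.5, 191 and 129 in HIF2α∆IEC. The groups overlapped. The other 63 members together had 35.9, 29.3 and 23.3 CPM in the controls, 38.7, 113.5 and 59.6 in HIF1α∆IEC and 15.5, 32.3 and 24.5 in HIF2α∆IEC. In these, every HIF1α∆IEC library was above every other library, replicate 1 by a small margin. No test was made of the difference between the abundant and the scarce members.

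The 3′ end was then set beside the levels. The 29 members in which a hairpin and no poly(A) signal was found summed to 20.4, 15.04 and 12.4 CPM in the controls, 19.9, 70.0 and 34.3 in HIF1α∆IEC and 8.19, 16.6 and 13.0 in HIF2α∆IEC. HIF1α∆IEC replicate 1 lay within the controls and replicates 2 and 3 above. The 13 with both features, of which Hist1h1c is the largest, had 75.1, 51.4 and 47.8 CPM in the controls, 80.7, 97.4 and 109 in HIF1α∆IEC and 54.6, 74.9 and 48.4 in HIF2α∆IEC. The 4 with a signal alone, mostly Hist2h2be, had 13.1, 14.6 and 11.1 CPM in the controls, 15.04, 10.4 and 10.02 in HIF1α∆IEC and 11.5, 18.2 and 12.2 in HIF2α∆IEC, with no separation of the groups. In HIF1α∆IEC replicate 2, the median log2 difference from the control mean was 1.95 over the 23 tested members with a hairpin alone, 1.45 over the 9 with both features, -0.04 over the 3 with a signal alone, 1.98 over the 11 with neither and 1.32 over the 2 with no transcript. In HIF2α∆IEC replicate 1 the same medians were -0.76, -0.33, -0.13, -1.11 and -0.87. In both libraries the members with neither feature were at least as far from the controls as those with the hairpin alone. Their gene models often stop at the coding end, so a hairpin may be missing only from the model. The part of the hairpin was not tested. These are descriptions over few genes, and the hairpin group and the scarce group share most members.

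Position gave a second view of the same genes. The Hist1 members lie mainly in 3 blocks on chromosome 13. Between 21715763 and 21837530, 12 tested members had a median log2 fold change of 1.19 in HIF1α∆IEC against control, all 12 positive. Between 22035164 and 22043676, 4 had a median of 0.99, and between 23531050 and 23764358, 26 had a median of 1.17, all of them positive. On chromosome 3, where the Hist2 block runs from 96219865 to 96279001, 3 were tested, with a median of 0.97 and 2 positive. The medians of these 4 blocks ran from 0.97 to 1.19. Lower than these, the 2 Hist3 members on chromosome 11 had a median of 0.66, 2 of 2 positive. Hist4h4 on chromosome 6 was at 1.04.

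Of the H2A and H2B genes, 12 pairs start within 500 bases of each other on opposite strands, and each pair is an H2A with an H2B gene. Both members were tested in 7 pairs. Hist1h2ae and Hist1h2bg, 286 bases apart, had log2 fold changes of 1.41 and 1.22 in HIF1α∆IEC against control, and Hist1h2ag and Hist1h2bj, 269 bases apart, 1.04 and 1.13. Hist1h2ak and Hist1h2bn had 1.40 and 1.65, Hist1h2ad and Hist1h2bf 0.85 and 1.12, and Hist1h2ao and Hist1h2bq 1.62 and 0.41. Hist1h2ac and Hist1h2bc, 274 bases apart, had 1.49 and 0.39, and Hist2h2ac and Hist2h2be, 238 bases apart, 2.07 and -0.17. In the last pair the H2B gene had the more counts: Hist2h2ac had 0.0945 to 2.32 CPM over the 9 libraries and Hist2h2be 8.99 to 17.1.

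Other genes of histone supply and of S phase, taken from lists chosen with earlier results of these data known, were read beside the members. Of 44 S-phase and proliferation genes, all tested, 16 were positive and 28 negative in HIF1α∆IEC against control, 0 were called by edgeR and 1 had an unadjusted p under 0.05, with a median log2 fold change of -0.05. Their summed level was 2584, 3051 and 2738 CPM in the controls, 2529, 2689 and 3177 in HIF1α∆IEC and 1985, 3387 and 3046 in HIF2α∆IEC. The groups overlapped, and the lowest library was HIF2α∆IEC replicate 1, which was also the lowest for 28 of the 48 tested histone members. The gene with an unadjusted p under 0.05 was Mki67, a proliferation marker, with 45.6, 38.1 and 28.8 CPM in the controls, 32.8, 204 and 62.5 in HIF1α∆IEC and 52.0, 40.2 and 29.7 in HIF2α∆IEC. HIF1α∆IEC replicate 2 was far above the rest, replicate 3 was also above the controls, and its log2 fold change was 1.41 ± 0.53 (SE; edgeR adjusted p = 0.999), or 0.31 without HIF1α∆IEC replicate 2. Pcna, the replication clamp, was lowest in that library, at 101 CPM against 118 to 226 elsewhere. In HIF2α∆IEC against control 23 of the 44 were positive and 21 negative, with none called.

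The 11 genes listed as replication-independent histone genes were at far higher levels. Most of them, but not all, are expressed throughout the cell cycle from mRNAs with poly(A) tails alone. The 11 summed to 2278 to 2705 CPM in the controls, 2503 to 3140 in HIF1α∆IEC and 1737 to 2931 in HIF2α∆IEC. In HIF1α∆IEC against control 8 were positive and 3 negative, with a median of 0.17 and 0 called. H2afj, an H2A variant gene, had 219, 155 and 133 CPM in the controls, 235, 334 and 248 in HIF1α∆IEC and 132, 213 and 149.6 in HIF2α∆IEC. Every HIF1α∆IEC library was above both other groups, and the log2 fold changes were 0.69 ± 0.26 (SE; edgeR adjusted p = 0.999) against control and -0.72 ± 0.26 (SE) for HIF2α∆IEC against HIF1α∆IEC. H3f3b, which encodes the replacement histone H3.3, ran from 468 to 575 CPM over the 9 libraries with no separation of the groups.

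Of 31 genes for histone mRNA synthesis, 3′ processing and decay, 16 were positive and 15 negative in HIF1α∆IEC against control, with a median of 0.01, 0 called and 1 at an unadjusted p under 0.05. Slbp, which encodes the hairpin-binding protein, had 24.8, 46.2 and 37.8 CPM in the controls, 22.1, 47.6 and 23.0 in HIF1α∆IEC and 45.5, 28.7 and 40.1 in HIF2α∆IEC (HIF1α∆IEC against control -0.23 ± 0.35, SE). Npat, the coactivator of histone gene transcription, had 3.08, 5.28 and 4.82 CPM in the controls, against 4.02, 13.8 and 4.10 in HIF1α∆IEC, where replicate 2 alone was high. Its log2 fold change, 0.73 ± 0.48 (SE), turned to -0.15 without that library. Snrpe, a core protein of the U7 particle that cleaves histone mRNA and of the spliceosome, had 48.3, 46.2 and 37.6 CPM in the controls, against 55.3, 93.3 and 81.4 in HIF1α∆IEC (0.80 ± 0.25, SE; edgeR adjusted p = 0.999). Of 19 histone chaperone genes, 9 were positive and 10 negative, with a median of -0.08 and none called or at an unadjusted p under 0.05.

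RNAs that end without a poly(A) tail by other routes were read beside the hairpin histone mRNAs. The labels name an Illumina TruSeq RNA kit, and whether poly(A) RNA was selected is not given in the sources used here. Of 16 listed, 14 were in the table, 7 of them at 0 in all 9 libraries, and only 4 were tested. They summed to 8.55, 22.7 and 5.54 CPM in the controls, 8.19, 22.9 and 9.98 in HIF1α∆IEC and 4.60, 7.52 and 4.23 in HIF2α∆IEC. These sums were mostly Rn7sk and Rpph1, and were high in HIF1α∆IEC replicate 2 and in control replicate 2. The median log2 difference of the 4 genes from the control mean was 1.58 in HIF1α∆IEC replicate 2, 0.49 in control replicate 2 and -0.99 in HIF2α∆IEC replicate 1, where the histone members had 1.60, 0.03 and -0.76. In HIF1α∆IEC against control 3 of the 4 were positive, with a median log2 fold change of 0.69 and 0 at an unadjusted p under 0.05. In HIF2α∆IEC against HIF1α∆IEC 0 of 4 were positive, 3 had an unadjusted p under 0.05 and 0 were called by edgeR, with a median of -1.40, where the members had -1.42. Rn7sk, a nuclear RNA that restrains transcription elongation, had 4.59, 14.1 and 3.15 CPM in the controls, 4.57, 9.397 and 4.17 in HIF1α∆IEC and 2.33, 3.05 and 1.43 in HIF2α∆IEC (HIF2α∆IEC against control -1.68 ± 0.58, SE; edgeR adjusted p = 1.00). The part of the tail in the histone values was not tested. Genes of up to 1000 bases had a median log2 difference from the control mean of 0.15, 0.35 and 0.25 in the HIF1α∆IEC libraries and -0.07, 0.14 and -0.10 in HIF2α∆IEC; those of the members were 0.40, 1.60 and 0.86, and -0.76, 0.19 and -0.23.

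**Figure D5:**
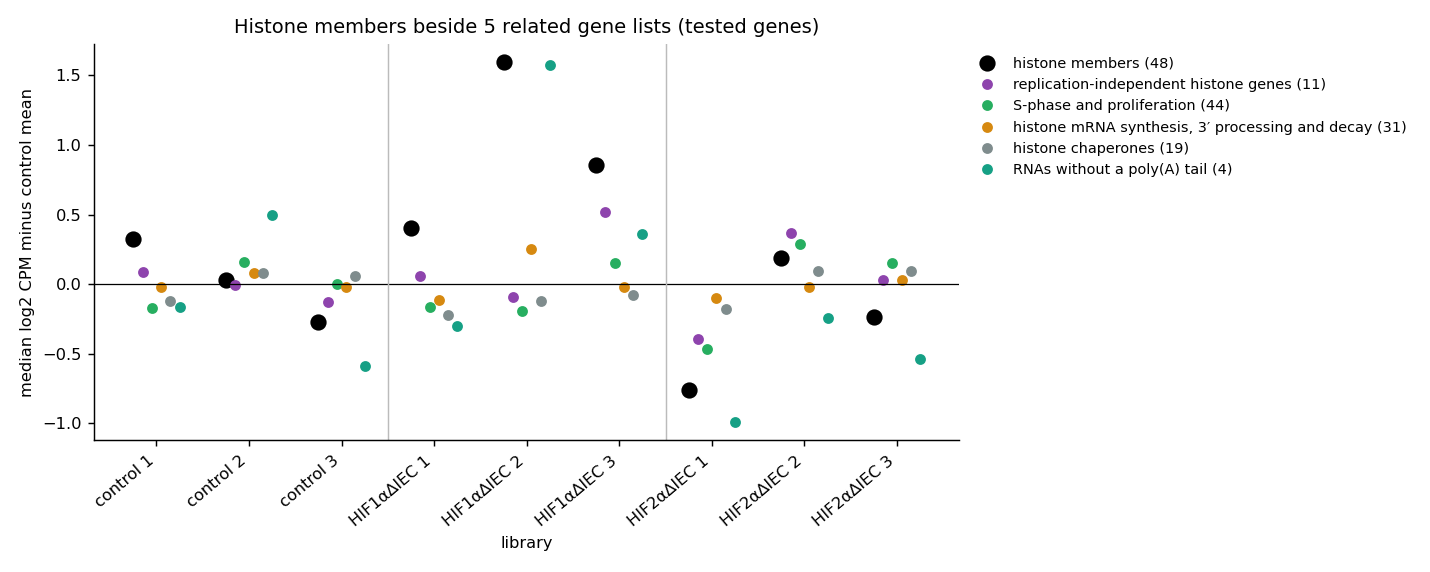
Median log2 CPM minus the control mean in each library (horizontal axis) for the 48 histone members and for the tested genes of 5 related lists, with the number of genes in the legend. The members reach 1.60 in HIF1α∆IEC replicate 2 and -0.76 in HIF2α∆IEC replicate 1, while the S-phase list is at -0.19 and -0.46 there.

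Markers of cell types that the preparations could hold were read beside these values; no listed marker that the table holds was at 0 in all libraries. Crypt base stem cell markers, 10 of 10 in the table, summed to 762 to 1434 CPM in the controls, 767 to 1186 in HIF1α∆IEC and 596 to 1281 in HIF2α∆IEC, with the low value in HIF2α∆IEC replicate 1. Paneth cell markers (10 of 10) ran from 18071 to 27466 in the controls, 24080 to 27705 in HIF1α∆IEC and 9209 to 26064 in HIF2α∆IEC, and enterocyte markers (12 of 12) from 13576 to 19707, 16562 to 21745 and 14237 to 30772. In HIF2α∆IEC replicate 1, where most histone members were lowest, Paneth cell markers were lowest and enterocyte markers highest. T and intraepithelial lymphocyte markers (15 of 15) ran from 482 to 634, 579 to 1003 and 349 to 3758 CPM, and B and plasma cell markers (9 of 10) from 234 to 352, 197 to 312 and 113 to 1633; both maxima were in HIF2α∆IEC replicate 1. Erythroid genes (6 of 6) ran from 2.73 to 6.91, 2.61 to 23.8 and 13.1 to 118, macrophage markers (9 of 10) from 33.9 to 41.5, 45.5 to 83.1 and 40.8 to 60.5, stromal and muscle markers (15 of 15) from 18.0 to 24.6, 18.5 to 36.1 and 27.8 to 61.8, and general epithelial markers (8 of 8) from 12738 to 17925, 12812 to 17927 and 13262 to 15803. The part of these cell types in the histone values was not tested, and in bulk RNA fewer cells in S phase and less histone mRNA per cell cannot be told apart.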

How the data were processed

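The authors deposited raw read counts per gene for 9 libraries in 1 table, with gene names, types and coordinates; per the submitters' processing notes, CASAVA, Bowtie 0.12.2 and mm10 were used. For the counting program, strand setting and treatment of reads with several matches, nothing is given in the sources used here. Libraries were grouped by their labels. Counts were fitted with edgeR 4.0.16 (limma 3.58.1, R 4.3.3): filterByExpr, TMM scaling and the quasi-likelihood test over all 9 libraries (6 residual degrees of freedom), two-sided, with Benjamini-Hochberg adjustment over 15486 genes and a threshold of 0.05. DESeq2 1.42.0, limma-voom, other scalings and filters, a sex term, a replicate block and left-out libraries were alternatives. The fit was tested on simulated data. Levels are TMM-scaled CPM; log2 CPM in the figures has a prior count of 2. Members and lists were chosen with earlier results of these data known. Named members are the 12 most abundant, the most abundant of each class, and in each comparison the 4 higher and 4 lower of smallest unadjusted p; from each list up to 3 genes of smallest p, and Slbp, Npat, Mki67, Top2a, Pcna and H3f3b among others, could be named. Total counts of 20959964 to 40391453 limit the precision for scarce members.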

Additional observations from a re-analysis of the deposited data

Results flagged for a closer look

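Hist1h2bh and Hist1h2bm, the 2 members with no transcript in GENCODE M21, summed to 1.12, 0.975 and 0.872 CPM in the controls, with 1.01, 2.64 and 1.498 in HIF1α∆IEC and 0.535, 0.712 and 0.716 in HIF2α∆IEC. Every HIF1α∆IEC library lay above the control mean and every HIF2α∆IEC library below it, and the log2 ratio of HIF2α∆IEC to HIF1α∆IEC was -1.39. For the 2 members the fold changes between these groups were -1.15 ± 0.50 for Hist1h2bh (SE; edgeR adjusted p = 0.743) and -1.59 ± 0.52 for Hist1h2bm (SE; edgeR adjusted p = 0.649), both at an unadjusted p under 0.05 and neither called; no test was made of their sum. HIF1α∆IEC replicate 1 lay within the controls.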

How the results depend on the processing

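No member was called by edgeR under any alternative; DESeq2 called 1 (Hist1h4d, HIF2α∆IEC against HIF1α∆IEC). Genes called over the whole table, 0 in all 3 comparisons, numbered 2, 5 and 15 with DESeq2 (in the order HIF1α∆IEC against control, HIF2α∆IEC against control, HIF2α∆IEC against HIF1α∆IEC) and 1, 5 and 10 without a count filter. The replicate block gave 1, 2 and 0 genes and no member; same-numbered libraries correlated at -0.38 to 0.25, so the numbers were not taken to pair libraries. Leaving out 1 library gave 0 to 1 genes in each comparison, and leaving out both libraries that stood apart gave 1 for HIF2α∆IEC against control. The members' median moved to 0.48 (HIF1α∆IEC against control) and -1.05 (HIF2α∆IEC against control) with a sex term. For HIF2α∆IEC against HIF1α∆IEC it ran from -1.67 to -0.89 with 1 library left out and was -0.68 without both. That comparison's log2 ratio of sums was -0.85 without Hist1h2bc.

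Log2 fold changes of named genes turned direction in 35 cases, and the cause was not tested. The fold changes that turned were not all small, with 0.75 for Hist1h4j (HIF2α∆IEC against control) and 0.73 for Npat (HIF1α∆IEC against control). With 1 library left out, those of HIF2α∆IEC against HIF1α∆IEC ran from -0.196 to 0.123 for Hist1h2bc, -0.265 to 0.0373 for Hist3h2a and -0.713 to 0.280 for Hist1h2bf. Those of HIF2α∆IEC against control ran from -0.141 to 0.312 for Hist1h1c, -0.0940 to 0.252 for Hist2h2be, -0.360 to 0.186 for Hist1h4i, -0.456 to 0.143 for Hist1h2ae, -0.435 to 0.156 for Hist1h1e, -0.615 to 0.0608 for Hist1h3g and -0.0288 to 1.11 for Hist1h4j. Those of HIF1α∆IEC against control ran from -0.246 to 0.314 for Hist1h4k, -0.160 to 0.944 for Hist1h2af and -0.151 to 1.0003 for Npat. Without both libraries that stood apart, HIF2α∆IEC against HIF1α∆IEC was 0.493 for Hist1h2bf and 0.110 for Hist1h2bg, HIF2α∆IEC against control 0.186 for Hist1h4i, 0.101 for Hist1h1e and 0.0602 for Hist1h3g, and HIF1α∆IEC against control -0.243 for Hist1h4k and -0.153 for Npat. With a sex term Hist1h1c was -0.0493 and Hist1h3a -0.0664 (HIF2α∆IEC against control), and Hist1h4k -0.538 (HIF1α∆IEC against control). Hist1h2bc in HIF2α∆IEC against HIF1α∆IEC was 0.00818 with upper-quartile scaling, 0.111 with total-count scaling and 0.0421 without a count filter, and Hist1h4k in HIF1α∆IEC against control was -0.0235 with total-count scaling. Hist1h3a, Hist1h2bf and Hist1h2af could not be fitted under the minimum-CPM filter. The depth, with many members near 1 CPM, limits what could be detected for scarce members.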
